A study of Mus musculus with 10 samples.

Results

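The 8 genes described here are S1pr1, Klf2, Il7r, Tcf7, Lef1, Satb1, Dapl1 and Igfbp4, a set that marks resting (naive) T cells and their traffic between blood and lymph nodes. They were chosen by name, with earlier results of these data known, and each matched a single row among the 54987 genes measured. RNA sequencing had been done on popliteal lymph nodes, the nodes behind the knee that receive lymph from the paw, of male BALB/c mice 6 to 8 weeks old, and every library is labelled day 15. Acu (3 libraries, numbered 4, 6 and 28) were injected under the skin of the right hind paw with 0.1 ml of complete Freund's adjuvant (killed mycobacteria in oil, which starts arthritis) and were given acupuncture, at the point ST36 by the series title. AIA (4 libraries, 5, 10, 31 and 38) received the same adjuvant injection without acupuncture, and Control (3 libraries, 15, 16 and 17) received the same volume of saline. No group carried a transgene or a deleted gene by its labels. Sham acupuncture, also named in the protocols, was not analysed here. Whether every library is a separate mouse is not stated, and p-values then reflect only how much these libraries vary. The comparisons asked how adjuvant arthritis, and acupuncture during it, were accompanied by changes in the nodes' RNA.

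A naive T cell enters a lymph node from the blood through high endothelial venules, searches it for antigen, and leaves again by the lymph. S1PR1, a receptor for the lipid sphingosine 1-phosphate, draws the cell out of the node, and KLF2 is a transcription factor that switches on the gene for S1PR1 and other genes of T cell traffic. Between encounters with antigen the cell is kept alive through IL7R, and its resting state depends on the transcription factors TCF-1 (encoded by Tcf7), LEF1 and SATB1. Activated T cells lower many of these genes.

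Expression was read as FPKM, the number of sequenced fragments per kilobase of gene, scaled by a size factor for each library. Levels of different genes are thus compared per length. The whole reads behind the values ranged from 13269763 to 18926894 per library. Mean log2(FPKM + 1) of 16 pan-T cell genes, such as Cd3e and Trac, was 1.39, 5.07 and 5.21 in the libraries labelled Acu 4, 6 and 28, was 5.12 to 5.43 in the 4 AIA libraries, and was 1.01, 4.88 and 1.57 in the libraries labelled Control 15, 16 and 17. The same 3 libraries were low for 12 B cell genes, with means of 0.47 in that labelled Acu 4, 0.65 in Control 15 and 0.47 in that labelled Control 17, while the other 7 had 5.66 to 6.60. The T and B cell markers that define a lymph node were thus near absent from those 3 libraries. The libraries labelled Acu 4 and Control 17 also carried all 13 genes of a decidua and uterus list above 1 FPKM, with means of 5.51 and 6.92, against at most 1.40 elsewhere, and the labels say male mice. Of 11 trophoblast genes, 10 and 7 were above 1 FPKM in these 2 libraries and none in the other 8. Control 15 had instead the highest mean of an adipocyte list, 9.61, against 0.85 to 7.55 in the other libraries. Every comparison below is therefore given with all 10 libraries, with the 8 left after removing the libraries labelled Acu 4 and Control 17, and with the 7 left after removing Control 15 as well. In bulk tissue, fewer T cells and less RNA per T cell cannot be told apart.

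**Figure D1:**
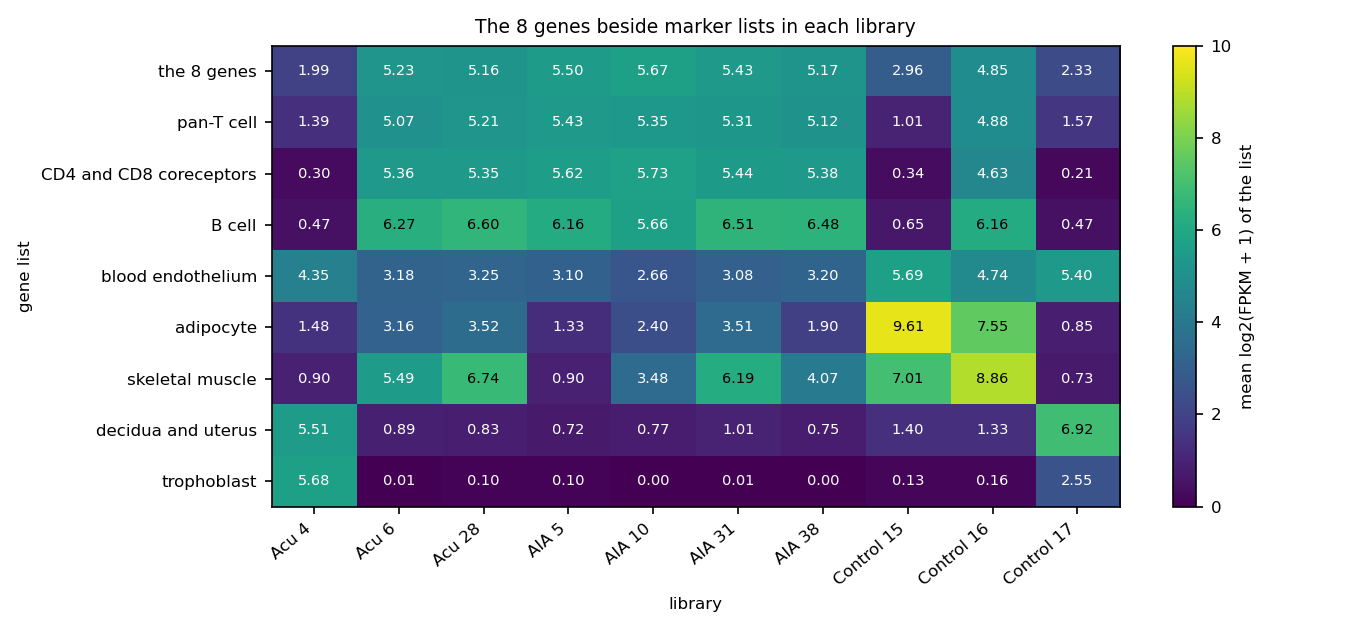
Mean log2(FPKM + 1), as colour and printed number, of each gene list (vertical axis) in each library (horizontal axis, in the order Acu, AIA, Control). The pan-T cell values of the libraries labelled Acu 4, Control 15 and Control 17 lie between 1.01 and 1.57, below those of the other 7 libraries at 4.88 to 5.43.

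The promoter sequences of 7 of the 8 genes were matched by symbol in a RefSeq table of the build GRCm38.p6, the patched form of mm10 on which the gene coordinates are given. Each window runs from 250 bases before to 50 bases after the first listed start of the gene, is read 5′ to 3′ on the strand of the gene, and is shown because Dapl1, Il7r and Lef1 were near 0 in the 3 libraries with few T cell genes while Klf2 was not. The windows were searched on both strands for CTTTGA, the core bound by TCF-1 and LEF1, for TGTTTAC, bound by FOXO factors, for CCGGAAG, bound by ETS factors, and for CACCC, bound by KLF factors. No match of one motif overlapped a match of another. The 4 windows below are Dapl1 (chr2:59484403-59484702, plus strand), Il7r (chr15:9529827-9530126, minus strand), Lef1 (chr3:131110047-131110346, plus strand) and Klf2 (chr8:72318812-72319111, plus strand), with matched letters in capitals.
Dapl1: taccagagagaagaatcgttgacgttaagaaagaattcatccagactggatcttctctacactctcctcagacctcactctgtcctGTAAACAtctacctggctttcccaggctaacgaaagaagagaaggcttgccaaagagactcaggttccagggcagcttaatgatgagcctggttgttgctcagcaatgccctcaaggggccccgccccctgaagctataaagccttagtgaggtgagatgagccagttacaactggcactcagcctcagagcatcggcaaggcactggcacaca
Il7r: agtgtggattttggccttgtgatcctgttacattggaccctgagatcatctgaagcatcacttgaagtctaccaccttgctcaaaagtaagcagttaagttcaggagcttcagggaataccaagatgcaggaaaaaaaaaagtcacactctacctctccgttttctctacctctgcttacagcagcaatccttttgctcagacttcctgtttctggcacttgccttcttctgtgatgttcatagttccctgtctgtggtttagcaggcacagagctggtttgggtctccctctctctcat
Lef1: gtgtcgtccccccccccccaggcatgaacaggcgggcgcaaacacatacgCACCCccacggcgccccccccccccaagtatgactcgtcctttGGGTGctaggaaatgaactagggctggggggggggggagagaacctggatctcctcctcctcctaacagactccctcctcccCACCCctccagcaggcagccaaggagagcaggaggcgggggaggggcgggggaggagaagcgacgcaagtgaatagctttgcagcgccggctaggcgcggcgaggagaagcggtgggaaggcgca
Klf2: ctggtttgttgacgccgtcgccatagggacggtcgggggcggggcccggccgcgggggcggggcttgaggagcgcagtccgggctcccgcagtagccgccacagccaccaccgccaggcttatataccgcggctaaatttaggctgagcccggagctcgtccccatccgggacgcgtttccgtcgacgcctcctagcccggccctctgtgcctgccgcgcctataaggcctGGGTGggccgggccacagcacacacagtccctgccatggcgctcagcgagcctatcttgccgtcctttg
Dapl1 held the FOXO letters once on the opposite strand (GTAAACA), Lef1 held CACCC at 3 places, 1 of them on the opposite strand, Klf2 held it once on the opposite strand, and Il7r held none of the 4 motifs. Over the 7 windows, CACCC was found in 5, TGTTTAC in 1, and CTTTGA and CCGGAAG in 0. Among 27025 promoters of the same length the shares were 56.7% for CACCC, 3.55% for TGTTTAC, 16.2% for CTTTGA and 9.12% for CCGGAAG. G and C made up 45.7% of the Il7r window and 51% of that of Dapl1, against 69.3% for Klf2 and 67.3% for Lef1. A match describes letters in a window, and its absence says nothing about binding by the factor. Only the first start was searched, although Lef1 had 4 listed starts, Satb1 had 5 and Tcf7 had 2. The Lef1 window ends before the gene start at 131110471 used for expression. The Il7r window lies inside the gene, whose upper end is 9530176. Other starts could give other matches and shares of G and C.

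S1pr1 (ENSMUSG00000045092, chromosome 3, 115710433 to 115715072, minus strand) encodes the receptor by which lymphocytes leave the node. It had 13.8, 63.3 and 51.4 FPKM in the libraries labelled Acu 4, 6 and 28. In AIA 5, 10, 31 and 38 it had 60.0, 46.5, 67.7 and 66.2 FPKM, and in the libraries labelled Control 15, 16 and 17 it had 83.4, 49.2 and 47.3 FPKM. The groups overlapped, the lowest value was that of the library labelled Acu 4, and the highest was that of Control 15, one of the libraries almost without T cell genes. Endothelial cells also use S1PR1, and mean log2(FPKM + 1) of 15 blood endothelium genes was 4.35 in the library labelled Acu 4, 5.69 in Control 15 and 5.40 in the library labelled Control 17, and lay between 2.66 and 4.74 elsewhere. Their part in the S1pr1 level was not tested.

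Klf2 (ENSMUSG00000055148, chromosome 8, 72319033 to 72321656, plus strand) encodes the factor that drives S1pr1 in T cells, and it also acts in endothelium. It had 43.3, 119 and 144 FPKM in the libraries labelled Acu 4, 6 and 28, against 130, 393, 130 and 118 FPKM in AIA 5, 10, 31 and 38. The libraries labelled Control 15, 16 and 17 had 113, 124 and 51.5 FPKM. AIA 10 stood alone at the top, while the other 3 AIA libraries averaged 126 ± 7.25 FPKM (SD, n = 3). Klf2 was the most abundant of the 8 genes per length in AIA, at 193 ± 134 FPKM (SD, n = 4), with the SD made almost wholly by AIA 10.

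Igfbp4 (ENSMUSG00000017493, chromosome 11, 99041244 to 99054392, plus strand) encodes a secreted protein that binds insulin-like growth factors, made by naive T cells and also by stromal and fat tissue. It had 23.8, 60.2 and 69.5 FPKM in the libraries labelled Acu 4, 6 and 28, against 56.4, 119, 59.2 and 76.0 FPKM in AIA 5, 10, 31 and 38. In Control 15, 16 and 17 it had 109, 53.8 and 31.9 FPKM. The groups overlapped, and Control 15 and AIA 10 were the highest libraries.

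S1pr1, Klf2 and Igfbp4 thus stayed at 13.8 FPKM or more in every library, although Klf2 was also at its lowest in the 3 libraries with few T cell genes, at 43.3 to 113 FPKM against 118 to 393 FPKM in the other 7. The other 5 genes lay at 1.38 FPKM or less in the library labelled Acu 4, in Control 15 and in the library labelled Control 17, and at 7.45 FPKM or more in the other 7.

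Il7r (ENSMUSG00000003882, chromosome 15, 9505788 to 9530176, minus strand) encodes the alpha chain of the interleukin 7 receptor, which gives resting T cells their survival signal. It had 0.283, 27.6 and 18.2 FPKM in the libraries labelled Acu 4, 6 and 28. In AIA 5, 10, 31 and 38 it had 38.2, 16.6, 28.1 and 19.9 FPKM, and in the libraries labelled Control 15, 16 and 17 it had 1.38, 15.2 and 0.321 FPKM. All 4 AIA libraries lay above all 3 Control libraries, but AIA 10 at 16.6 FPKM was close to Control 16 at 15.2 FPKM.

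Tcf7 (ENSMUSG00000000782, chromosome 11, 52252371 to 52283014, minus strand) encodes TCF-1, the factor that sets T cell identity in the thymus and keeps naive and memory cells able to renew. It had 0.861, 110 and 84.2 FPKM in the libraries labelled Acu 4, 6 and 28, against 98.9, 91.1, 106 and 104 FPKM in AIA 5, 10, 31 and 38. The libraries labelled Control 15, 16 and 17 had 0.950, 43.7 and 0.819 FPKM. The AIA libraries were tightly grouped, and Control 16, the only Control library with T cell genes, lay below every AIA library and below Acu 6 and 28. The low values rest on 36 reads in the library labelled Acu 4, 41 in Control 15 and 33 in the library labelled Control 17, against 1774 in Control 16.

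Lef1 (ENSMUSG00000027985, chromosome 3, 131110471 to 131224356, plus strand) encodes the partner of TCF-1 that binds the same DNA letters. It had 0.200, 10.2 and 10.6 FPKM in the libraries labelled Acu 4, 6 and 28, against 15.6, 27.7, 14.4 and 10.8 FPKM in AIA 5, 10, 31 and 38. The libraries labelled Control 15, 16 and 17 had 0.228, 7.45 and 0.756 FPKM. AIA 10 was again the highest library, and every AIA library lay above every Acu and Control library, although AIA 38 and Acu 28 nearly met.

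Satb1 (ENSMUSG00000023927, chromosome 17, 51736187 to 51833290, minus strand) encodes a protein that folds chromatin in developing and resting T cells. It had 0.297, 11.6 and 11.3 FPKM in the libraries labelled Acu 4, 6 and 28, against 14.9, 13.5, 13.9 and 11.7 FPKM in AIA 5, 10, 31 and 38. The libraries labelled Control 15, 16 and 17 had 0.863, 8.89 and 0.154 FPKM. The groups ordered as for Lef1, without overlap of AIA with either of the others, but the lowest AIA library, at 11.7 FPKM, was next to Acu 6 at 11.6 FPKM.

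Dapl1 (ENSMUSG00000026989, chromosome 2, 59484653 to 59505020, plus strand) encodes a small protein related to death-associated protein, known as a marker of naive CD8 T cells. It had 0, 17.7 and 20.6 FPKM in the libraries labelled Acu 4, 6 and 28, against 36.7, 28.8, 29.3 and 12.7 FPKM in AIA 5, 10, 31 and 38. The libraries labelled Control 15, 16 and 17 had 0.179, 21.4 and 0 FPKM. A count of 0 reads allows up to 3 reads, which is 0.278 FPKM in the library labelled Acu 4 and 0.288 FPKM in that labelled Control 17, by counting error only. Unlike the 4 genes before it, Dapl1 was higher in Control 16 than in Acu 6, Acu 28 and AIA 38.

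**Figure D2:**
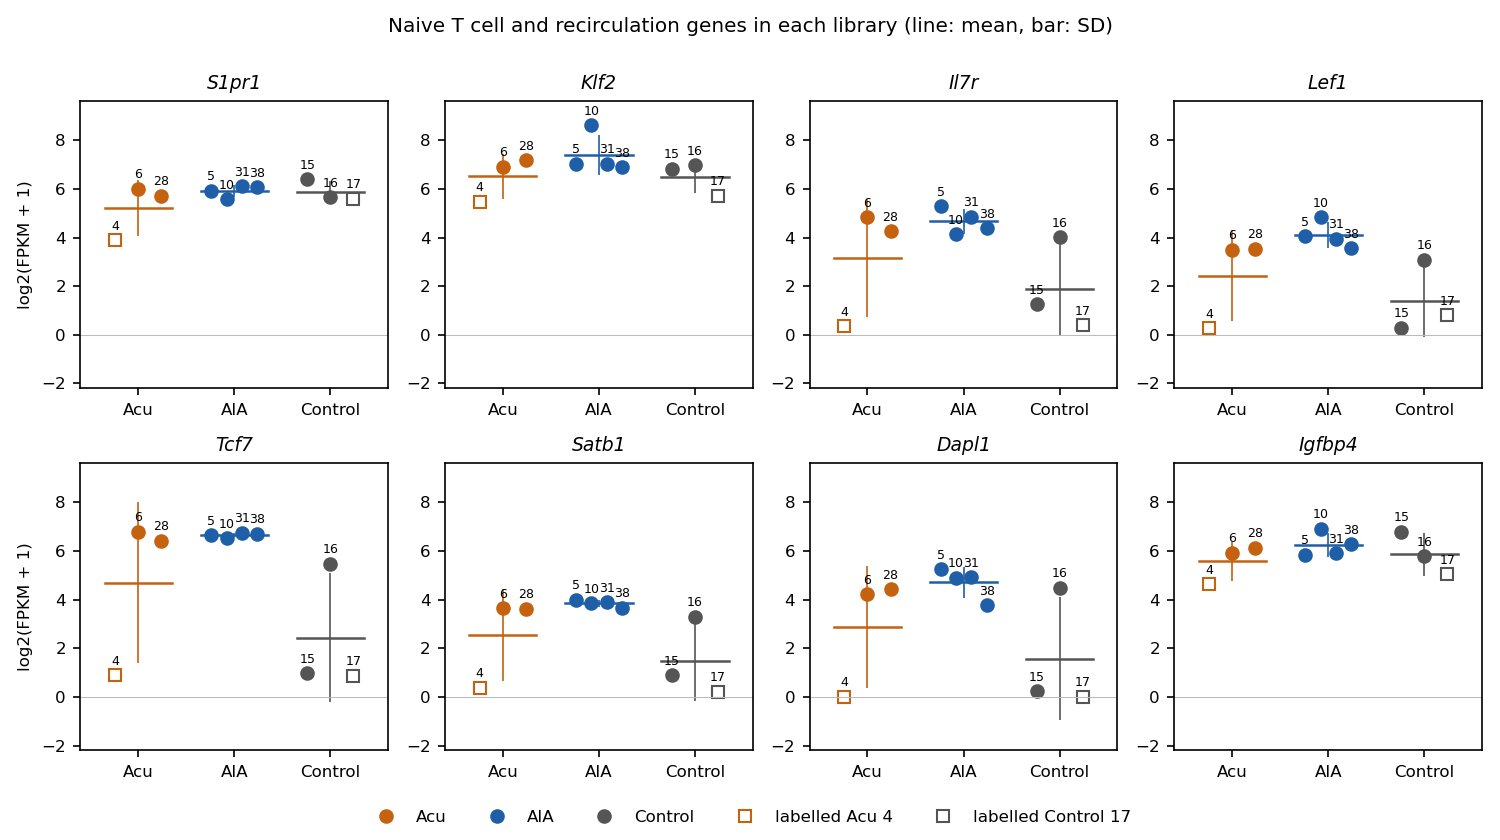
Log2(FPKM + 1) of each of the 8 genes (vertical axis) in every library of Acu, AIA and Control (left to right), with the mean as a line, the SD as a bar, and open squares for the libraries labelled Acu 4 and Control 17. Il7r, Tcf7, Lef1, Satb1 and Dapl1 fall to 1.25 or less in these 2 libraries and in Control 15, while S1pr1, Klf2 and Igfbp4 stay at 3.89 or more.

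By mean FPKM in AIA the order was Klf2, Tcf7 at 100.05 ± 6.70, Igfbp4 at 77.7 ± 28.9, S1pr1 at 60.1 ± 9.67, Dapl1 at 26.9 ± 10.1, Il7r at 25.7 ± 9.65, Lef1 at 17.2 ± 7.35 and Satb1 at 13.5 ± 1.34 (SD, n = 4). Neighbours in this order differed by less than the larger of their SDs, except S1pr1 and Dapl1. Acu also had Klf2 at the top, with 102 ± 52.3 FPKM, but Lef1 at the bottom, with 7.03 ± 5.92 FPKM, below Satb1 at 7.74 ± 6.45 FPKM (SD, n = 3). Control had Klf2 at 96.3 ± 39.2, Igfbp4 at 65.0 ± 39.8 and S1pr1 at 60.0 ± 20.3 FPKM, all above Tcf7 at 15.2 ± 24.7 FPKM (SD, n = 3). The SDs of Acu and Control for the 5 genes that vary with T cell content are close to or above their means, with 1 of 3 Acu and 2 of 3 Control libraries near 0.

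In AIA against Control, none of the 8 genes passed the threshold of 0.05 for the limma adjusted p with all 10 libraries, where 0.0235% of 17010 genes did. All 8 log2 fold changes were positive, with a median of 2.54, against -0.067 over all genes tested. Tcf7 had the largest, at 4.22 (SE 1.47, 95% interval 0.95 to 7.49, limma adjusted p = 0.130). Dapl1 was at 3.13 (SE 1.27, limma adjusted p = 0.169) and Il7r at 2.78 (SE 1.10, limma adjusted p = 0.163). Lef1 was at 2.71 (SE 0.88, limma adjusted p = 0.118) and Satb1 at 2.38 (SE 0.89, limma adjusted p = 0.146). Klf2, at 0.89 (SE 0.59), Igfbp4, at 0.37 (SE 0.52), and S1pr1, at 0.037 (SE 0.50), had limma adjusted p of 0.356, 0.678 and 0.970. The AIA libraries lay wholly above the Control libraries for 4 of 8 genes, Il7r, Lef1, Tcf7 and Satb1, against 11.4% of all genes tested. The means of the pan-T cell list moved with these genes, and their part in the result was not tested.

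The call depends on a library outside the comparison. The library labelled Acu 4 enters through the shared estimate of spread and through the set of genes tested. Without it, Il7r (2.78, limma adjusted p = 0.0486), Lef1 (2.71, 0.0297), Tcf7 (4.22, 0.0302) and Satb1 (2.38, 0.0450) passed the threshold in AIA against Control, at unchanged fold changes. That setting called 1713 genes, with 4.68% of all genes higher in AIA. Array weights, which let the libraries that vary most count for less, called the same 4 genes and Dapl1 (3.16, limma adjusted p = 0.0408), with 8.22% of all genes higher in AIA.

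With 8 libraries, 13.4% of 16067 genes passed in AIA against Control and still none of the 8 genes did. Tcf7 stood at 3.43 (SE 1.00, 95% interval 1.14 to 5.73, limma adjusted p = 0.0569) and Lef1 at 2.41 (SE 0.69, 95% interval 0.82 to 4.01, limma adjusted p = 0.0546). Satb1 was at 1.75, Il7r at 2.03 and Dapl1 at 2.35, with limma adjusted p of 0.0782, 0.0912 and 0.153. Klf2 was at 0.50, and S1pr1 and Igfbp4 turned to -0.11 and -0.048, with limma adjusted p from 0.587 to 0.958. The same 4 genes did not overlap between AIA and Control, as was the case for 18% of all genes tested in the same direction.

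With 7 libraries Control was Control 16 alone, assumed to vary like the other groups, and 2.83% of 15653 genes passed. Control 16 had the highest skeletal muscle list mean of all libraries, 8.86, against 0.90 to 6.19 in AIA, an adipocyte list mean of 7.55, against 1.33 to 3.51 in AIA, and 18.3% mitochondrial reads. Their part in the differences from this library was not tested. None of the 8 genes did, and their median log2 fold change was 0.50. Tcf7 remained the largest at 1.17 (SE 0.37, 95% interval 0.30 to 2.04, limma adjusted p = 0.168), followed by Lef1 at 1.02 (SE 0.49) and Il7r at 0.65 (SE 0.51). Satb1 was at 0.55, Igfbp4 at 0.46, Klf2 at 0.43, S1pr1 at 0.27 and Dapl1 at 0.22. With 8 libraries the values of Tcf7, Lef1, Il7r, Satb1 and Dapl1 were thus more than 1.5 times those without Control 15.

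In Acu against AIA, 0% of 17010 genes passed with all 10 libraries, where 800 had an unadjusted limma p under 0.05, and limma with array weights called 98. All 8 genes had negative log2 fold changes, with a median of -1.41 against 0.079 over all genes tested, and each had a limma adjusted p of 0.746. The values were -1.96 for Tcf7, -1.82 for Dapl1, -1.67 for Lef1, -1.52 for Il7r, -1.30 for Satb1, -0.88 for Klf2, -0.71 for S1pr1 and -0.66 for Igfbp4. Lef1 and Satb1 were the 2 of 8 whose Acu libraries lay wholly below the AIA libraries, against 5.1% of all genes.

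Removing the library labelled Acu 4, together with that labelled Control 17, brought these values near 0. Lef1 and Satb1 still lay wholly below AIA, against 7.69% of all genes. The median of the 8 genes was then -0.20, against 0.060 over all genes, and limma adjusted p ranged from 0.984 to 0.997. Tcf7 was at -0.054 (SE 1.00, 95% interval -2.35 to 2.24) and Lef1 at -0.59 (SE 0.69, 95% interval -2.18 to 1.00). The intervals of the 5 genes that vary with T cell content are wide because Control 15 enters the shared spread. Without Control 15 the interval was -0.73 to 0.62 for Tcf7 and -1.48 to 0.31 for Lef1, and -0.75 to 0.33 for Satb1 at -0.21. Each of these intervals, not adjusted over genes, held 0. They do not show how large an Acu to AIA difference could have been detected.

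In Acu against Control, 0% of genes passed with 10 libraries, where 1275 had an unadjusted limma p under 0.05, and limma with array weights called 2067. Tcf7 had the largest log2 fold change, 2.26 (SE 1.57, limma adjusted p = 0.753), followed by Dapl1 at 1.31, Il7r at 1.26, Satb1 at 1.08 and Lef1 at 1.04. Klf2 was at 0.013, Igfbp4 at -0.30 and S1pr1 at -0.68. No gene of the 8 was free of overlap in either direction, against 4.87% of all genes higher and 4.27% lower. With array weights Tcf7 passed at 3.96 (limma adjusted p = 0.0403), with 4.87% of all genes higher in Acu. With 8 libraries 4.34% of genes passed and none of the 8 did. Tcf7 was at 3.38 (95% interval 0.73 to 6.03, limma adjusted p = 0.136), and Il7r, Lef1, Tcf7 and Satb1 lay wholly above Control, against 32.4% of all genes. With 7 libraries Tcf7 was at 1.12 (SE 0.40, limma adjusted p = 0.322) and Dapl1 at -0.16 (SE 0.61). Comparisons that share the Control or the AIA libraries are not independent of each other.

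**Figure D3:**
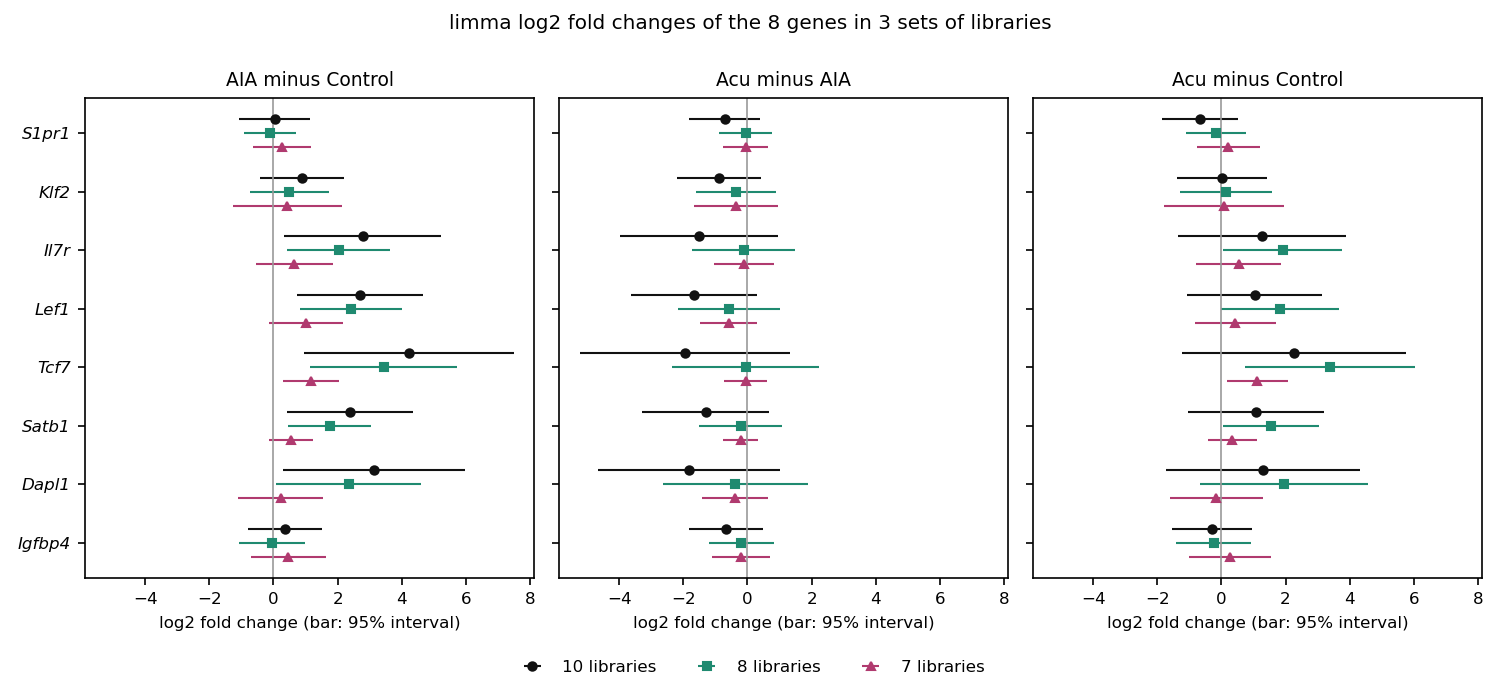
Log2 fold change of each gene (horizontal axis) with its 95% interval for the 3 comparisons, with 10, 8 and 7 libraries. For AIA minus Control, Tcf7 is at 4.22, 3.43 and 1.17, and for Acu minus AIA it is at -1.96 with 10 libraries and at -0.054 with 8 and with 7.

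The levels were also set against the T cell genes of the same library. The difference of log2(FPKM + 1) from the pan-T cell mean was -1.59 to -1.41 for Satb1 over the 7 libraries with T cell genes, a spread of 0.18. Tcf7 stood above the pan-T mean by 1.72 and 1.203 in Acu 6 and 28, by 1.21, 1.18, 1.43 and 1.59 in AIA 5, 10, 31 and 38, and by 0.60 in Control 16. Lef1 was at -1.58 and -1.67 in Acu 6 and 28, at -1.37, -0.50, -1.36 and -1.56 in AIA 5, 10, 31 and 38, and at -1.80 in Control 16. Control 16 was thus the lowest of the 7 for both TCF-1 and LEF1 genes, as 1 library with no replicate. Il7r ranged from -0.95 to -0.23 in Acu 6 and 28 and from -1.21 to -0.13 in AIA, and was -0.87 in Control 16. Dapl1 was at -0.84 and -0.78 in Acu 6 and 28, at -1.34 to -0.19 in AIA and at -0.39 in Control 16. In the 3 libraries nearly without T cells these differences rest on values near 0 and are not compared.

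**Figure D4:**
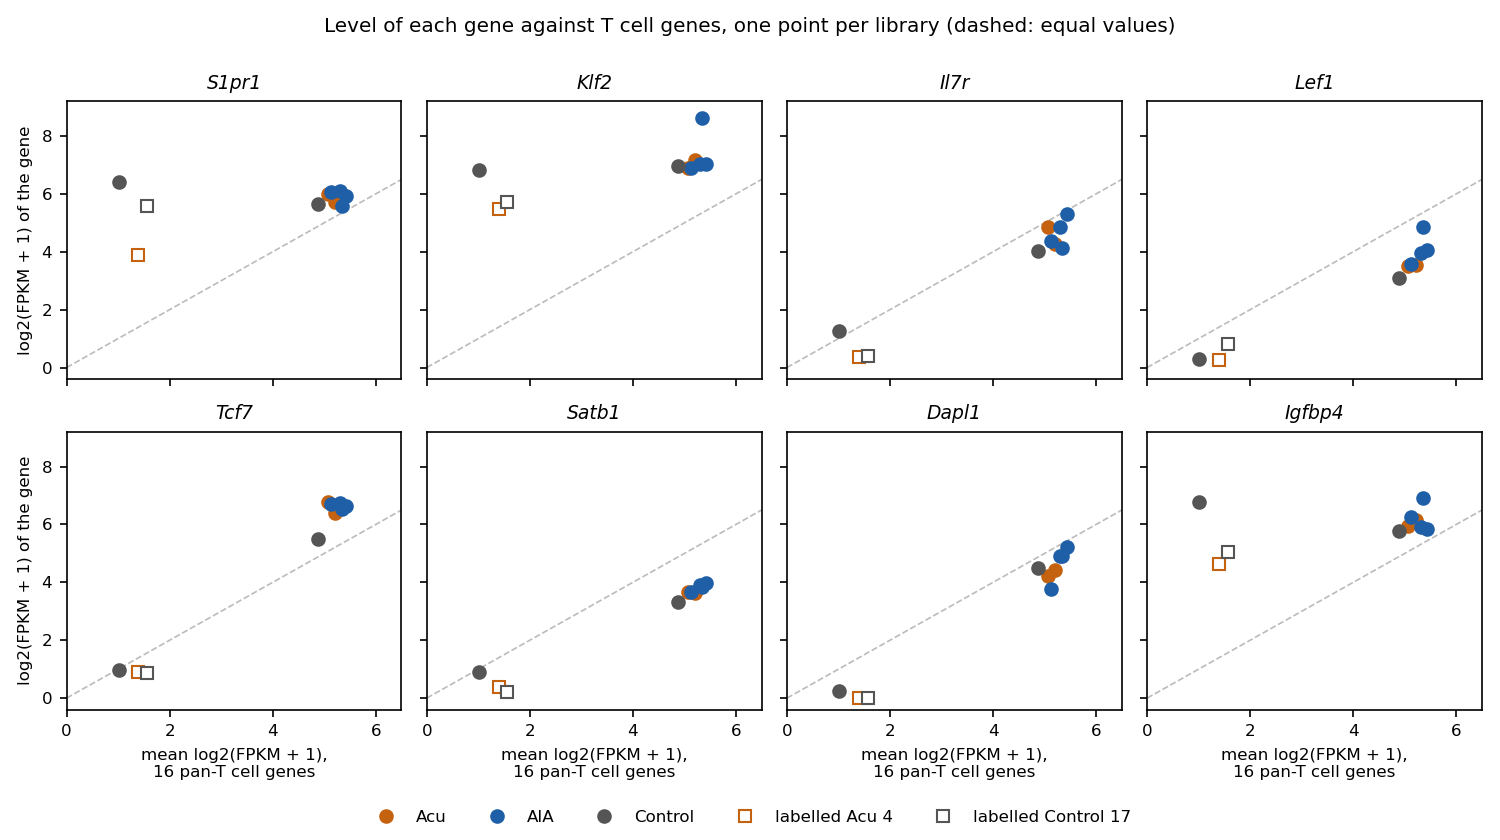
Log2(FPKM + 1) of each gene (vertical axis) against the pan-T cell mean of the same library (horizontal axis), in Acu, AIA and Control. The libraries labelled Acu 4 and Control 17, and Control 15, have pan-T means of 1.01 to 1.57, where Il7r, Tcf7, Lef1, Satb1 and Dapl1 are at most 1.25 and S1pr1, Klf2 and Igfbp4 are at least 3.89.

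AIA 10 departed from the other AIA libraries for several of the 8 genes at once. Klf2 was at 393 FPKM, against 118 to 130 in AIA 5, 31 and 38, Lef1 was at 27.7 FPKM against 10.8 to 15.6, and Igfbp4 was at 119 FPKM against 56.4 to 76.0. S1pr1 was the lowest of the 4 there, at 46.5 FPKM against 60.0 to 67.7, and Il7r, at 16.6 FPKM against 19.9 to 38.2, was also lowest, as was Tcf7, at 91.1 FPKM against 98.9 to 106. Satb1 and Dapl1 lay inside the range of the other 3. AIA 10 had 15116 genes above 0, against 21224 to 24411 in the other libraries, and 0.643% of its reads on mitochondrial genes, against 1.44% to 18.3%. Their part in these levels was not tested. Without AIA 10 and the libraries labelled Acu 4 and Control 17, 21.5% of genes passed in AIA against Control. None of the 8 genes did, and Klf2 was at 0.088 (SE 0.26).

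A further 95 genes around these 8, in 6 lists, were followed in the same fits, and 90 were tested. With all 10 libraries none passed in any of the 3 comparisons. The most abundant of the homing and egress list were Coro1a, a cytoskeletal protein that naive T cells need to leave the thymus and survive, at 3.27 (SE 1.28, limma adjusted p = 0.157) in AIA against Control, and Gnai2, the G protein that S1PR1 and chemokine receptors signal through, at 0.34 (SE 0.43). For interleukin 7 signalling these were Il2rg, the common gamma chain, at 1.75 (SE 0.82, limma adjusted p = 0.215), and the kinase Jak1 at 0.34 (SE 0.46). Ikzf1, which encodes the lymphoid factor Ikaros, was at 2.56 (SE 1.10), and Id3 was at -1.05 (SE 0.33, limma adjusted p = 0.110). Ctnnb1, which encodes beta-catenin, the coactivator of TCF-1, was at -1.96 (SE 0.91, limma adjusted p = 0.213) and Tle3, a corepressor, at -0.31 (SE 0.45). Ly6c1 was at -1.22 (SE 1.07) and Txnip at -1.53 (SE 0.60) among naive cell markers. The median was 1.45 for homing and egress, 0.55 for interleukin 7 signalling, 0.42 for quiescence factors, -0.89 for Wnt effectors, 0.80 for naive markers and 1.12 for activated T cells, against -0.067 over all genes.

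With 8 libraries 23 of the 89 listed genes tested passed in AIA against Control, 16 higher and 7 lower, where 4.36% of all genes were higher and 9.06% lower. Of 19 homing and egress genes, 3 rose and 1 fell. Plpp3, a phosphatase that breaks down sphingosine 1-phosphate, fell by 2.57 (limma adjusted p = 0.0139), with 4.58 to 9.63 FPKM in AIA, against 78.7 and 23.1 FPKM in Control 15 and 16. It had 163 FPKM in the library labelled Acu 4 and 251 FPKM in that labelled Control 17, both left out here. Of 15 blood endothelium genes 11 fell with it, with a list median of -2.31, and their part in the Plpp3 result was not tested. Among those that rose, Itgal, the alpha chain of the adhesion molecule LFA-1, rose by 2.67 and Lyve1, of lymphatic vessels, by 1.47.

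Of 12 interleukin 7 signalling genes, Cish, a feedback inhibitor of cytokine receptors, fell by 2.17 (limma adjusted p = 0.0167) and none rose. Cish had 0 to 1.83 FPKM in AIA, with 0 in AIA 10, against 9.47 and 6.83 FPKM in Control 15 and 16. The adipocyte list mean was 1.33 to 3.51 in AIA, against 9.61 and 7.55 in Control 15 and 16. The part of fat tissue in the Cish result was not tested. Of 17 quiescence and naive transcription factors, 2 rose and 2 fell, with the largest changes in Tob1, an antiproliferative factor, which fell by 3.08 (limma adjusted p = 0.00340), and Bach2, a repressor of effector genes, which rose by 1.80 (limma adjusted p = 0.0495). Of 10 Wnt effectors, 3 fell and none rose, among them Tcf7l1, which encodes another TCF family member, by 1.93 (limma adjusted p = 0.00886), and Ctnnbip1, an inhibitor of beta-catenin, by 1.42 (limma adjusted p = 0.0492). Of 15 naive T cell markers, Rgs10, a regulator of G protein signalling, rose by 2.27 and Nsg2 by 1.42.

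Among 16 activated and effector T cell genes, 9 rose and none fell. In the same fit 3 of 6 NK cell genes, 8 of 10 plasma cell genes and 13 of 13 dividing cell genes rose. By contrast, 15 of 15 adipocyte genes and 11 of 15 blood endothelium genes fell. All 15 pan-T cell genes tested had positive log2 fold changes, with a median of 2.51 and 0 passing. All 12 B cell genes did too, with a median of 2.69 and 1 passing. The median of the effector list was 1.66. The part of these lists in the effector gene result was not tested. Batf, a factor of activated lymphocytes, rose by 3.02 (limma adjusted p = 0.0270), with 25.1 to 43.9 FPKM in AIA, against 0.476 and 10.1 FPKM in Control 15 and 16. Gzmb, a killer cell granule protease, rose by 2.97 (limma adjusted p = 0.00705), with 15.6 to 47.8 FPKM in AIA, against 1.57 and 2.34 FPKM in Control 15 and 16. The library labelled Control 17, left out here, held 496 FPKM of Gzmb, and that labelled Acu 4 held 122 FPKM. Without Control 15, and so with a single Control library, 2 of the listed genes passed instead of 23, both lower in AIA, where 2.36% of all genes were lower. They were Tob1, at -2.44 (limma adjusted p = 0.0228), and Tcf7l1, at -1.40 (limma adjusted p = 0.0495). Tob1 had 5.82 to 9.08 FPKM in AIA, against 109 and 44.4 FPKM in Control 15 and 16, and the adipocyte list mean was 1.33 to 3.51 in AIA, against 9.61 and 7.55. The part of fat tissue in these 2 genes was not tested.

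In Acu against AIA none of the 95 genes passed with 10, 8 or 7 libraries. In Acu against Control 5 passed with 8 libraries, where 0.878% of all genes were higher and 3.47% lower. Gzmb (2.57, limma adjusted p = 0.0377), Prf1, which encodes perforin (2.03, 0.0463), and Lyve1 (1.999, 0.0406) were higher in Acu. Tob1 (-3.07, 0.0166) and Tcf7l1 (-1.96, 0.0292) were lower. With 7 libraries none of them passed. Leaving out AIA 10, which is outside this comparison, with the libraries labelled Acu 4 and Control 17 gave 19 listed genes in Acu against Control, 13 higher and 6 lower, where 5.39% of all genes were higher and 7.84% lower. The same setting gave 28 in AIA against Control, 20 higher and 8 lower, where 9.25% of all genes were higher and 12.2% lower.

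The genes most like each member over the 10 libraries were taken as those with the smallest root mean square difference of log2(FPKM + 1), after each gene was centred on its own mean, among 13618 tested genes. Satb1 was closest to Mcoln2, at 0.13, Il16 at 0.21 and Kmo at 0.24. Tcf7 was closest to Ms4a1, which encodes the B cell antigen CD20, at 0.19, and to Ccr7, the receptor that guides naive T cells into the node, at 0.28, and then Btla at 0.29. Mcoln2 had 9.47 and 11.8 FPKM in Acu 6 and 28, 10.9 to 13.5 in AIA and 9.999 in Control 16, against 0.134, 0.759 and 0.0990 FPKM in the libraries labelled Acu 4, Control 15 and Control 17. Il7r was nearest to Klhl6 (0.28), BE692007 and Slamf6, Lef1 to Ly9 (0.28), Bfsp2 and Cd7, and Dapl1 to Sept1 (0.30), Cd8a (0.34) and Cd3g (0.34). Genes of T and B cells alike lie in this list, since the same 3 libraries were low for both. S1pr1 was nearest to Ablim1 (0.32), Fli1 (0.32) and Irf2bp2 (0.39), Klf2 to Elk4 (0.17), Mrps23 (0.17) and AI606181 (0.19), and Igfbp4 had Lsm12 (0.27) and Psen2 (0.28) among its nearest. Elk4, Mrps23 and AI606181 were, as Klf2 was, highest in AIA 10. They had 66.3, 15.3 and 20.6 FPKM there. In AIA 5, 31 and 38 they had 22.2 to 28.3, 3.10 to 3.43 and 6.56 to 7.39 FPKM. With 8 libraries 4 of the 24 names stayed the same.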

How the data were processed

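Per the labels' protocols, Trizol was used to extract the RNA and an NEBNext Ultra kit to build libraries. The submitters' processing notes name, without roles, mm10, DESeq2 1.16.1, featureCounts 1.5.0-p3, StringTie 1.3.3b and HISAT2 2.0.5. The strand setting of the counting was not given, so overlapping and antisense genes are uncertain. The authors deposited FPKM for 54987 genes in 10 libraries. FPKM times gene length was a whole multiple of 1 step in each library for 100% of values, within a tolerance of 0.01, which gave the reads behind each value. By this step, the authors' FPKM were already on a common scale set by size factors.

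A gene was tested if 3 or more libraries reached 0.5 FPKM. The tests used log2(FPKM + 1) with limma 3.58.1 (R 4.3.3), with a mean-variance trend and all 10 libraries in 1 fit. P-values were adjusted by Benjamini and Hochberg over all genes tested, with a threshold of 0.05. The pseudocount of 1 understates the change of low genes. SE is limma's moderated standard error and SD the spread between libraries in FPKM.

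Named from each list were the 2 called genes with the largest change, or with none called the 2 most abundant, and the 3 genes most like each member. Predicted genes, named Gm, Rik, AC or AL, were left out of the likeness search. Itgal, Lyve1, Nsg2 and the T cell receptor genes in AIA 10 were chosen after their values were seen. The results of some genes that this rule names are left out of the text. The members, the lists and the tests were chosen with earlier results of these data known. Alternatives were a pseudocount of 0.1, no filter, the 2 groups alone, array weights, voom on the recovered reads and leaving out libraries. Matplotlib 3.10.9, scipy 1.17.1, pandas 2.3.3 and numpy 2.4.6 under Python 3.11.15 were used for tables and figures.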

Additional observations from a re-analysis of the deposited data

Results flagged for a closer look

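Klf2 in AIA 10 stood far from the other AIA libraries, both as a level and relative to the T cell genes of the same library. It had 393 FPKM there, against 118 to 130 FPKM in AIA 5, 31 and 38. Its log2(FPKM + 1) was 3.27 above the pan-T cell mean in AIA 10, against 1.61 to 1.77 in the other 3. Each of the 8 genes was examined in this way on both scales over the 4 AIA libraries, which made 16 tests with 2 values standing apart, both of Klf2. Chance sets a library apart in about 1 in 20 groups. The 2 values are not independent, since both scales use the same Klf2 FPKM. The pan-T cell means taken off in the second scale spanned only 5.12 to 5.43 in AIA. The 16 tests also share the same 4 libraries. Groups of 3 libraries were not examined. AIA 10 also had the fewest genes above 0 (15116) and the lowest share of mitochondrial reads (0.643%), and their part in the Klf2 value was not tested.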

How the results depend on the processing

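Apart from leaving out 1 library at a time, 186 values under other settings stayed the same. Of the others, 14 numbers of called genes moved, 10 fold changes turned sign and 6 newly passed the threshold. For a fold change, the same means that it kept its direction and its side of the threshold. The 186 also include numbers of called genes, which were judged only by their size. A rescaling of the deposited FPKM was planned too, but its factors all came out at 1, so it could change nothing and is not counted. The number of genes called moved most. In AIA against Control it was 4, and became 0 with a pseudocount of 0.1, 1 without the filter, 0 with voom, 3319 with array weights, 785 with the 2 groups alone, 2156 with 8 libraries, 443 with 7 and 3398 without AIA 10 and the libraries labelled Acu 4 and Control 17. In Acu against AIA it was 0, and became 2 without the filter and 98 with array weights. In Acu against Control it was 0, and became 1, 2067, 698 (8 libraries) and 2096 (without AIA 10 and the 2 labelled libraries) under the same settings.

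Array weights called 5 of the 8 genes in AIA against Control, where 8.22% of all genes were called higher. These were Il7r at 2.78 (limma adjusted p = 0.0316), Lef1 at 2.598 (0.0197), Tcf7 at 4.2015 (0.0196), Satb1 at 2.25 (0.0273) and Dapl1 at 3.16 (0.0408). Tcf7 was called in Acu against Control at 3.96 (0.0403). The sign turned for S1pr1 in AIA against Control, at -0.11 with 8 libraries. Igfbp4 turned to -0.23 with array weights, -0.048 with 8 libraries and -0.27 without AIA 10 and the 2 labelled libraries. In Acu against AIA, Klf2 turned to 0.053 and Igfbp4 to 0.031 without AIA 10 and the 2 labelled libraries, and Igfbp4 to 0.0084 with array weights. In Acu against Control, 7 libraries gave 0.21 for S1pr1, -0.16 for Dapl1 and 0.26 for Igfbp4. The cause was not tested.

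Leaving out 1 library at a time gave 0 to 1713 called genes in AIA against Control, 1713 being the count when that labelled Acu 4 was left out. It was 967 when that labelled Control 17 was left out, 7 without AIA 10, 2 without Acu 6 and 0 without any of the others. In Acu against AIA it gave 1 without the library labelled Control 17 and 0 otherwise. In Acu against Control it gave 303 without the library labelled Control 17, 85 without the library labelled Acu 4 and 0 otherwise. In AIA against Control the log2 fold changes ranged from -0.11 to 0.30 for S1pr1, -0.048 to 0.82 for Igfbp4, 2.03 to 3.84 for Il7r, 2.16 to 3.55 for Lef1, 3.43 to 5.74 for Tcf7 and 1.75 to 3.30 for Satb1. In Acu against Control they ranged from -0.38 to 0.54 for Klf2 and from -0.71 to 0.17 for Igfbp4. No paired analysis was possible because the groups share no replicate number.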

Other observations

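In AIA 10 the T cell receptor genes did not move together, as a set of values chosen after they were seen. Trac had 25.9 FPKM there, against 126 to 145 FPKM in AIA 5, 31 and 38, and Cd3e had 12.6 FPKM, against 30.5 to 36.4 FPKM. Trbc1 had 907 FPKM in AIA 10, against 140 to 331 FPKM in the other 3. The pan-T cell mean, to which the naive genes were set, averages genes that lay below and above the other AIA libraries in this one.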
